A study of Caenorhabditis elegans with 2 samples.

Results

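The genes described here are 38 protein-coding genes of Caenorhabditis elegans, of 19985 in the annotation, chosen by name, for their known use in neurons, with earlier results of these data known. In the list, 28 are pan-neuronal genes, which nearly every neuron of the worm uses to build axons and release transmitter, and 10 are genes known from the phasmid sensory neurons of the tail. They were described in a chromatin immunoprecipitation sequencing (ChIP-seq) experiment on the transcription factor DMD-4, made to map the genome regions that the tagged factor occupies. There was 1 group of 2 biological replicates, whole late embryos of hermaphrodite strain OP418, with genotype unc-119(tm4063) III; wgIs418, collected 5 h after synchronization by bleaching of eggs. The transgene adds a GFP-FLAG tag to the C-terminus of DMD-4, and an antibody against GFP was used for the precipitation. All embryos carried the tag and the unc-119 allele, no untagged group was analysed here, and the promoter of the transgene is not given in the sources used here. Chromatin came from whole embryos, so binding in few cells and weak binding in many cells cannot be told apart, and no expression was measured that could check in which cells the genes were active.

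DMD-4 belongs to the DM-domain family of zinc-finger proteins, which also holds Doublesex of the fly and MAB-3 of the worm, and it is known from a small set of neurons and from the pharynx. Pan-neuronal genes encode the shared parts of the neuron: the vesicle and SNARE proteins of transmitter release, the active zone scaffold, the peptide-processing enzymes of dense core vesicles and the proteins of axon growth. The phasmids are paired sensory organs of the tail that open to the outside, and their neurons detect repellent chemicals through G protein-coupled receptors, G proteins and TRPV channels.

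A candidate is 1 of the 30000 regions in the list the authors made from the pooled replicates, and it belongs to a gene when its summit lies in the gene body or up to 2000 bp upstream of it. A reproducible peak is a candidate that is also in the authors' list of 652 regions that passed a filter on the irreproducible discovery rate, which compares the ranks of regions between replicates. The signal of a region is the authors' value in arbitrary units, and the pooled rank counts from 1 at the strongest signal. Ranks and not signals are set side by side between replicates, since the units of different lists are not comparable. All positions are on assembly WBcel235 (ce11).

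Tagged DMD-4 was found at 6 of the 28 pan-neuronal genes at the level of a reproducible peak and at 0 of the 10 phasmid genes, where 3.52% of all protein-coding genes and 9.29% of those with windows at least as long as the pan-neuronal median had one. At the share over all genes, a count of 0 in 10 is near the background. The 6 genes were the vesicle kinesin gene unc-104, the active zone gene syd-2, the axon growth genes unc-33, unc-14 and unc-51, and maco-1, which encodes the neuronal membrane protein macoilin. The sequences below are shown because they lie under 4 of these peaks and under the strongest phasmid candidate. Each is given 5′ to 3′ on the plus strand of the RefSeq genome sequence of WBcel235. The first, chrII:7001487-7001737 in an intron of unc-104, has in capitals the predicted tRNA pseudogene C52E12.t1. The second, chrX:10555570-10555770 in the promoter of syd-2, has no capitals because none of the motifs searched occurs in it. The next, chrIV:3524644-3524894 in an intron of unc-33, has in capitals the whole tRNA-Arg gene M57.t1. The one after it, chrV:20005811-20006011 upstream of unc-51, has in capitals the hexamer GAGAGA, where the longest run of capitals holds overlapping copies. The last, chrIV:3559195-3559395 upstream of the phasmid channel gene osm-9, has none of the motifs.
unc-104 intron: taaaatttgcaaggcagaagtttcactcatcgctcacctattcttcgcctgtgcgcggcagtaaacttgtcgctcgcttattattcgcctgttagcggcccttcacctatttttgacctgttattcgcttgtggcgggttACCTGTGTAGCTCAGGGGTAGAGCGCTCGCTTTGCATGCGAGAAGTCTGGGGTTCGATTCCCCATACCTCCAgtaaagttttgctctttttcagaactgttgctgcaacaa
syd-2 promoter: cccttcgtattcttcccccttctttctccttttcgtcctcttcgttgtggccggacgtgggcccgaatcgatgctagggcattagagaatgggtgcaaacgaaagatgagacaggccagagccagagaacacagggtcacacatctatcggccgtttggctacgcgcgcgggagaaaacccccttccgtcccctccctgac
unc-33 intron: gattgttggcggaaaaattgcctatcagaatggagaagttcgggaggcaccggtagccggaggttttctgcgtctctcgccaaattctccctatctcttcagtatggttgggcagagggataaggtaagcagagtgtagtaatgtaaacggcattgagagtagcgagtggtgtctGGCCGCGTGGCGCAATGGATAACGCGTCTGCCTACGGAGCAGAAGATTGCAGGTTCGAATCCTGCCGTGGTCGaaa
unc-51 upstream: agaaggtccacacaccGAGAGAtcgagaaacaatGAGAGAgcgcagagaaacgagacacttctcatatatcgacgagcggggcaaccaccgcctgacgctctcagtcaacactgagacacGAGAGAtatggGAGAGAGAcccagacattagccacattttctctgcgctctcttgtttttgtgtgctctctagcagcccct
osm-9 upstream: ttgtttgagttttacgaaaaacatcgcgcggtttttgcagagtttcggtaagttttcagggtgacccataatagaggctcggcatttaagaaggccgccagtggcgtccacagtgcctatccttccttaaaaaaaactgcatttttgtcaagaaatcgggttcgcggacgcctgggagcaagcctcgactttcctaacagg

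Of the pan-neuronal genes, 27 of 28 had at least 1 candidate (96.4%), against 4 of 10 phasmid genes (40%) and 12771 of all 19985 protein-coding genes (63.9%). A reproducible peak lay at 6 of 28 pan-neuronal genes (21.4%, 95% exact Clopper-Pearson interval 8.3 to 41%) and at 0 of 10 phasmid genes, which allows a share of up to 30%. Among all protein-coding genes the share was 3.52% (704 genes). Such intervals and limits cover counting error over genes only, genes are not replicates, and no test against all genes was made. Counting gene bodies alone, without the 2000 bp upstream, left 2 pan-neuronal genes with a peak, unc-104 and unc-33 (7.14%), and 0 phasmid genes, against 1.15% of all protein-coding genes counted the same way. The difference between the pan-neuronal and the phasmid genes was not tested.

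Gene length also differed between the lists, though not in the order of these shares. The window of a pan-neuronal gene, its body plus 2000 bp upstream, had a median of 9675 bp (2940 to 33332 bp), against 4856 bp (2873 to 8342 bp) for phasmid genes and 4026 bp for all protein-coding genes. Among the 14 pan-neuronal genes with a window of at least the pan-neuronal median, 4 had a reproducible peak (28.6%, interval 8.39 to 58.1%). Among all 1637 protein-coding genes with windows that long, 152 had one (9.29%). Per length, the pan-neuronal windows held 3.87 candidates per 10 kb, the phasmid windows 1.31 and all protein-coding windows 3.14. Among windows of at least the pan-neuronal median, the values were close, 3.77 at pan-neuronal genes and 3.58 at all protein-coding genes. With overlapping candidates merged, the pan-neuronal value was 3.44, and that over all genes was not computed. Reproducible peaks numbered 18.1 per Mb of pan-neuronal window and 7.36 per Mb over all genes. The part of gene length in the difference from all genes was not tested beyond these values.

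**Figure D1:**
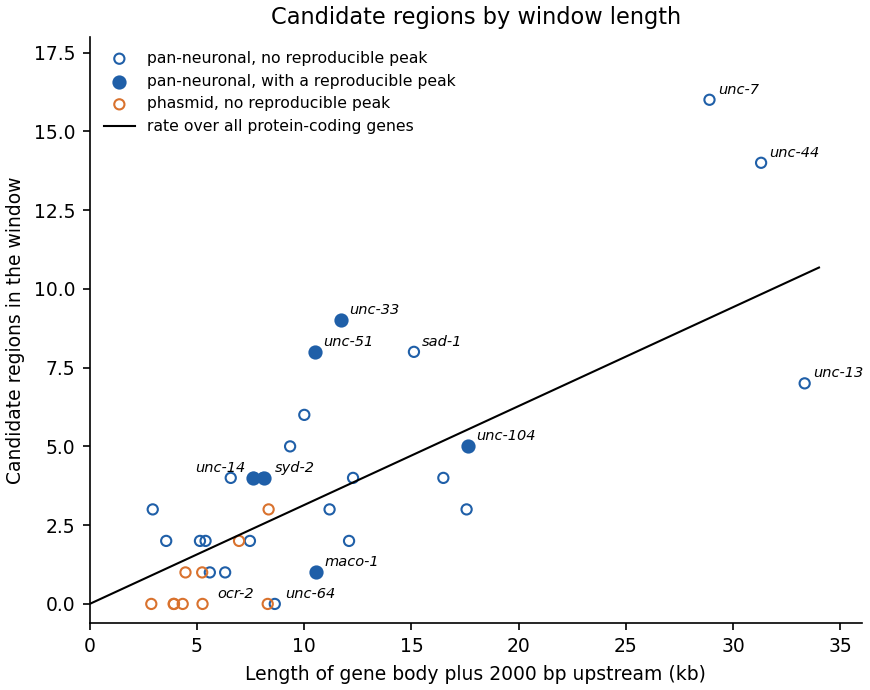
Number of candidate regions in each gene's window (vertical axis) against the length of the window in kb (horizontal axis), 1 circle per gene, with pan-neuronal genes in blue, phasmid genes in orange and filled circles for genes with a reproducible peak. The line is the rate over all protein-coding genes, 3.14 candidates per 10 kb, and unc-7 (16 candidates), unc-44 (14) and unc-33 (9) lie above it while unc-13 (7) lies below.

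The signals of most candidates were alike in the lists. The median candidate had a signal of 42.4 at pan-neuronal genes (29.8 to 163.0, 128 candidates), 39.9 at phasmid genes (30.6 to 60.2, 7 candidates) and 41.1 over all protein-coding genes. At the strong end of the ranking the pan-neuronal share stood above that of all genes, which was not tested. The 10 phasmid genes were too few to tell their counts from the share over all genes. Among the top 2000 regions, 12 pan-neuronal genes (42.9%) and 0 phasmid genes had one, against 9.65% of all protein-coding genes and 25.9% of those with long windows. Down to rank 5000 the counts were 20 pan-neuronal genes (71.4%) and 1 phasmid gene (10%), against 21% of all genes and 50.8% of those with long windows.

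**Figure D2:**
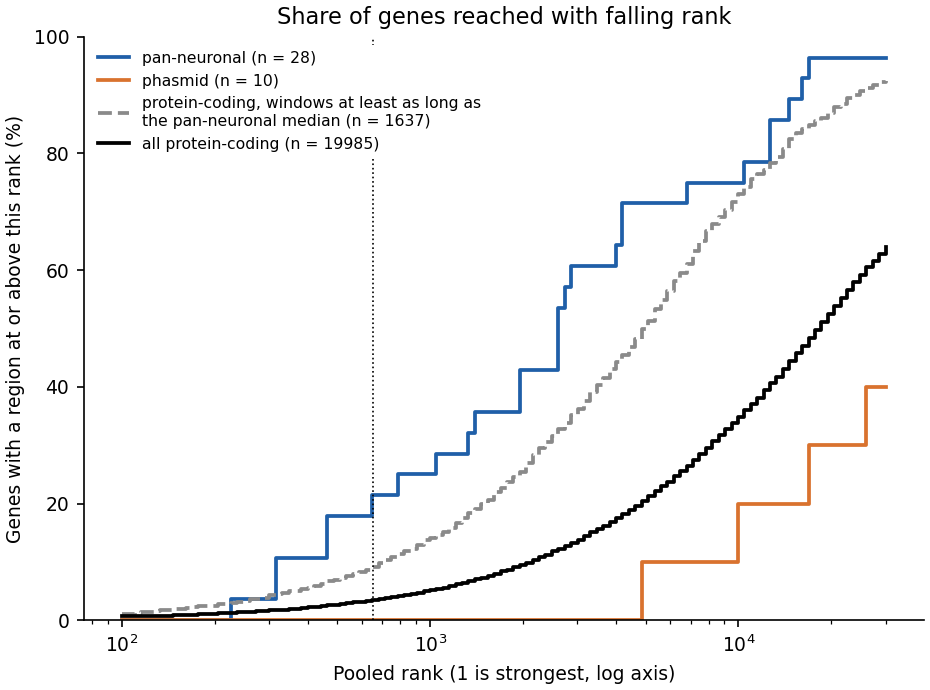
Percent of genes with a region at or above a given pooled rank (vertical axis), against that rank on a log axis, for pan-neuronal genes (blue), phasmid genes (orange), protein-coding genes with windows at least as long as the pan-neuronal median (grey, dashed) and all protein-coding genes (black). The dotted line marks rank 652, the end of the reproducible list, where the pan-neuronal genes stand at 21.4%, the phasmid genes at 0%, the genes with long windows at 9.29% and all genes at 3.52%.

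The strongest region of any member was at unc-104, the kinesin that carries synaptic vesicle precursors down the axon. It lay in an intron at chrII:7001387-7001836, 6625 bp inside the gene, with a pooled signal of 163.0 at rank 221. Its rank was 214 in replicate 1 and 251 in replicate 2. Across the whole reproducible list the median signal was 138.8, so this peak was above the median, while the highest peak of the list reached 1433.2. The summit lay 15 bp from the predicted tRNA pseudogene C52E12.t1 (chrII:7001627-7001698), which is printed in capitals above. Of its 72 bases, 67 (93.1%) were the same as in the closest of 285 nuclear tRNA genes of the same length, a group of 8 tRNA-Ala genes. Another region of the same gene lay just outside the reproducible list, at chrII:7002906-7003355 with a signal of 105.9 (rank 660, ranks 546 and 990 in replicates 1 and 2). It lay 67 bp from the tRNA-Ala gene C52E12.t3, and the tRNA-Thr gene C52E12.t2 was also within 500 bp. Both strong regions of unc-104 therefore lay beside tRNA sequence, and the promoter region of the gene was weaker, with a signal of 72.7 (rank 2315).

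The 4 axon genes had 3 of the 6 peaks and 35 candidates, 5.72 per 10 kb, where all protein-coding genes had 3.14 candidates per 10 kb and 3.52% had a peak. This density was the highest of 8 functional groups into which the pan-neuronal genes were sorted for this description, each of few genes. Overlapping candidates counted separately in it, and all 4 axon genes held some. The order of the groups with overlapping candidates joined was not computed, so the axon genes are not set apart by it. At unc-33, the worm CRMP, which organizes microtubules in axons, the peak was in an intron at chrIV:3524544-3524993 (signal 142.1, rank 310). It ranked 291 in replicate 1 and 401 in replicate 2, and its summit was 50 bp from the tRNA-Arg gene M57.t1 (chrIV:3524819-3524891). The gene had 9 candidates, and the strongest away from the tRNA gene, in the promoter of an inner transcript, had a signal of 82.2 (rank 1460). At unc-14, whose RUN-domain protein works with the UNC-51 kinase in axons, the peak lay in the promoter, 69 bp upstream of the start (chrI:7128090-7128539, signal 122.0, rank 442). It was stronger in the ranking of replicate 1 (293) than in that of replicate 2 (776). At unc-51, the worm homologue of the autophagy kinase ATG1, the peak was 1426 bp upstream of the start (chrV:20005686-20006135, signal 120.6, rank 459). Here replicate 2 ranked it higher (400) than replicate 1 (719). The nearest start of another protein-coding gene, Y60A3A.23 on the opposite strand, was 1859 bp from that summit, so the region lies between divergent genes. A second unc-51 region in a coding exon had a signal of 91.8 (rank 998, ranks 963 and 1244 in replicates 1 and 2). The ankyrin gene unc-44 had 14 candidates over 31301 bp and no peak, with its strongest at 76.5 (rank 1920).

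Among the 4 active zone genes 1 had a peak, where 3.52% of all protein-coding genes and 9.29% of those with long windows had one. A count of 1 in so few genes does not set the group apart. Liprin-alpha, encoded by syd-2, places the active zone in the synapse, and its promoter held a peak 431 bp upstream of the start at chrX:10555445-10555894 (signal 142.9, rank 304). It stood almost level in the replicates, at rank 289 in replicate 1 and 308 in replicate 2. These regions were matched by overlap, and at least 1 replicate had no summit within 100 bp of the pooled one. The pooled summit fell within the annotated non-coding RNA F59F5.9, and the nearest tRNA gene was 111352 bp away. The presynaptic kinase gene sad-1 came next with a region 1757 bp upstream at chrX:13502200-13502649 (signal 90.5, rank 1047, ranks 1996 and 1705 in replicates 1 and 2). The RIM gene unc-10 reached 71.3 (rank 2487). The Munc13 gene unc-13, a vesicle priming factor with the longest window of all members, had 7 candidates over 33332 bp, the strongest at 54.0 (rank 6716).

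**Figure D3:**
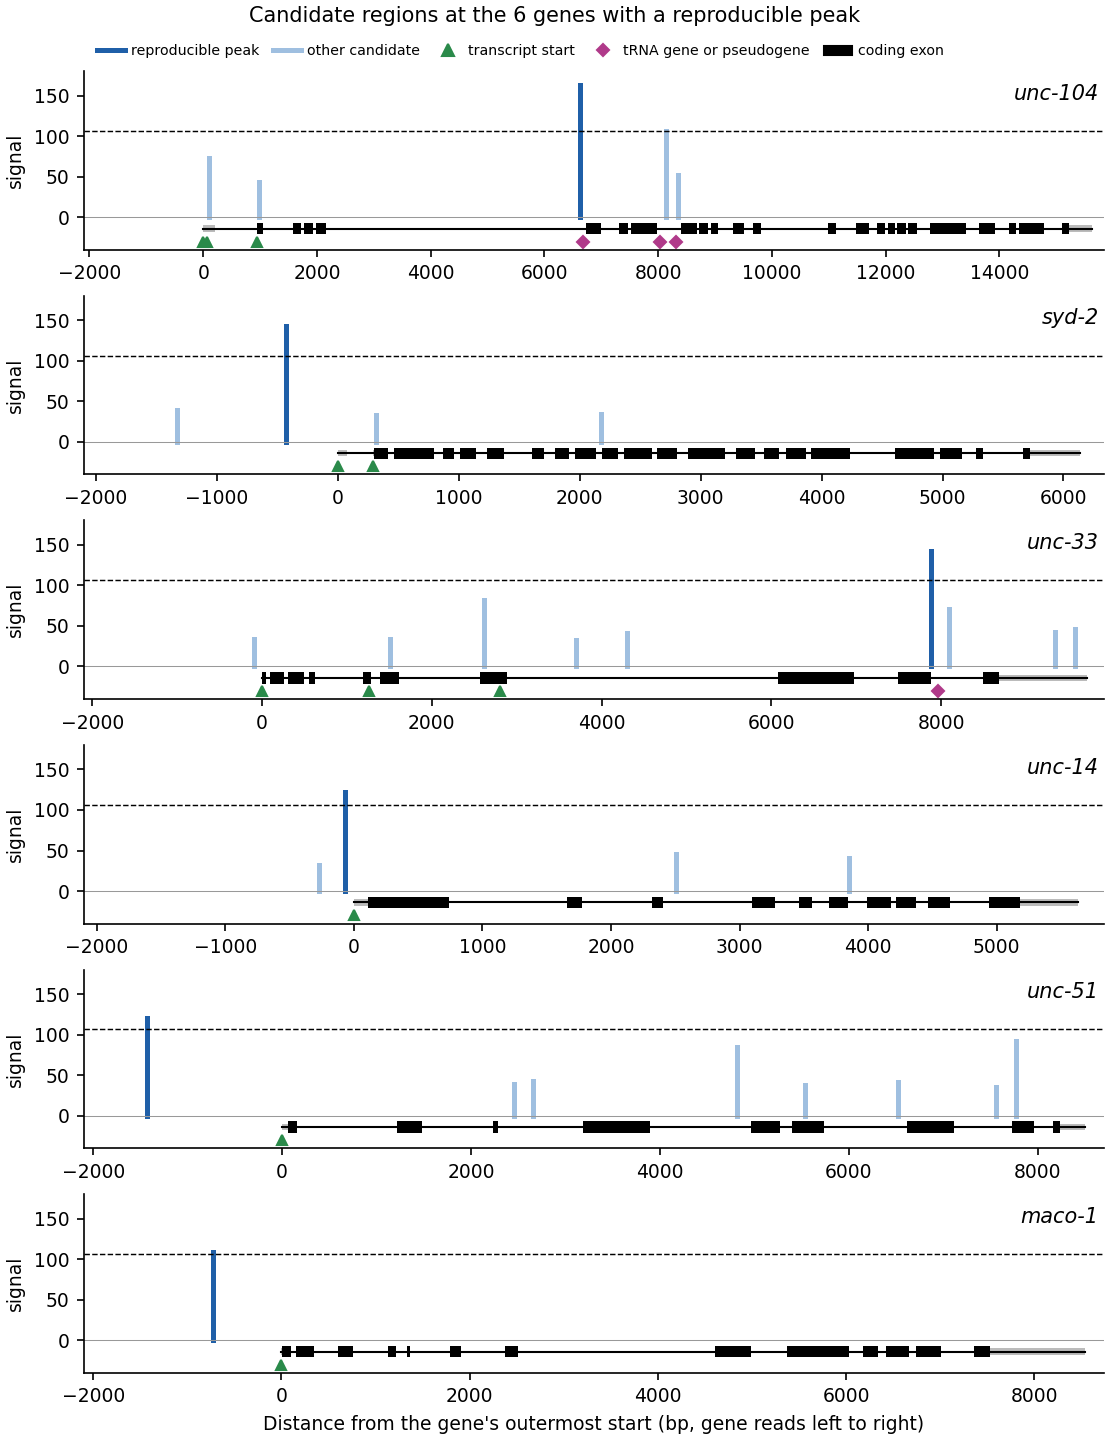
Candidate regions along the 6 genes with a reproducible peak, drawn to scale from the outermost start of each gene (horizontal axis, bp), with the signal of each summit as a bar (dark blue for reproducible peaks, light blue for other candidates), coding exons in black and tRNA genes or pseudogenes as purple diamonds. The dashed line is the lowest signal of the reproducible list, 106.4, and the peaks of unc-104 and unc-33 stand beside tRNA sequence inside the gene while those of syd-2, unc-14, unc-51 and maco-1 stand upstream of the start.

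The SNARE genes and their regulators, the machinery that fuses vesicles with the membrane, had no peak at any of 6 genes, which is near the background of 3.52% of all genes. The synaptobrevin gene snb-1 was the strongest, with a promoter region 222 bp upstream of the start (signal 76.9, rank 1872). Tomosyn, encoded by the inhibitor gene tom-1, had 70.3 (rank 2623), a value that rested on replicate 2, where the region ranked 966 against 17723 in replicate 1. The SNAP25 homologue gene ric-4 reached 47.6, the Munc18 homologue gene unc-18 reached 44.4 and the complexin gene cpx-1 reached 43.9. The unc-18 region also lay in the promoter of another gene, stn-2, near a tRNA gene, and was not in the list of replicate 1. The syntaxin gene unc-64 was the 1 pan-neuronal gene with no candidate, over a window of 8630 bp.

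The 3 vesicle protein genes had candidates and no peak, and against 63.9% of all genes with a candidate and 3.52% with a peak these counts are near the background too. The synaptotagmin gene snt-1, the calcium sensor of release, had a region 19 bp upstream of its start with a signal of 70.7 (rank 2559). The synapsin gene snn-1 had 68.7 (rank 2853) and the small GTPase gene rab-3 had 63.0 (rank 3874). The rab-3 region ranked 14693 in replicate 1 and 2770 in replicate 2.

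All 5 dense core vesicle genes had candidates and none a peak. Over all protein-coding genes 63.9% had a candidate and 3.52% a peak, and among those with long windows 92.4% and 9.29%. With only 5 genes, of shorter and longer windows, these counts do not set the group apart. The highest was the CAPS gene unc-31, needed for peptide release, at 83.5 in its promoter (rank 1371, ranks 3410 and 1226 in replicates 1 and 2). The prohormone convertase gene egl-3 reached 62.4, the transmembrane phosphatase-like gene ida-1 41.9, the ICA69 homologue gene ric-19 40.7 and the carboxypeptidase gene egl-21 39.5. The ric-19 summit lay inside another protein-coding gene, pmlr-1. Of the endocytosis genes, the endophilin gene unc-57 had 84.8 (rank 1315) and the clathrin adaptor gene unc-11 had 62.1 (rank 4102).

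The other pan-neuronal genes were maco-1, rgef-1 and unc-7. The peak of maco-1 was its single candidate, 723 bp upstream of the start at chrI:6608018-6608467 (signal 108.9, rank 620), and it ranked 802 in replicate 1 and 594 in replicate 2. Here too the match was by overlap, and at least 1 replicate had no summit within 100 bp of the pooled one. The maco-1 peak was the weakest member peak, near the end of the list at 106.4. The Ras exchange factor gene rgef-1, whose promoter is widely used to mark all neurons, had a promoter region 212 bp upstream of the start at chrV:9561661-9562110 (signal 101.1, rank 752). The replicates parted there, with rank 4067 in replicate 1 and 505 in replicate 2. The innexin gene unc-7, a gap junction subunit, had the most candidates, 16, and none above 70.5 (rank 2595).

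**Figure D4:**
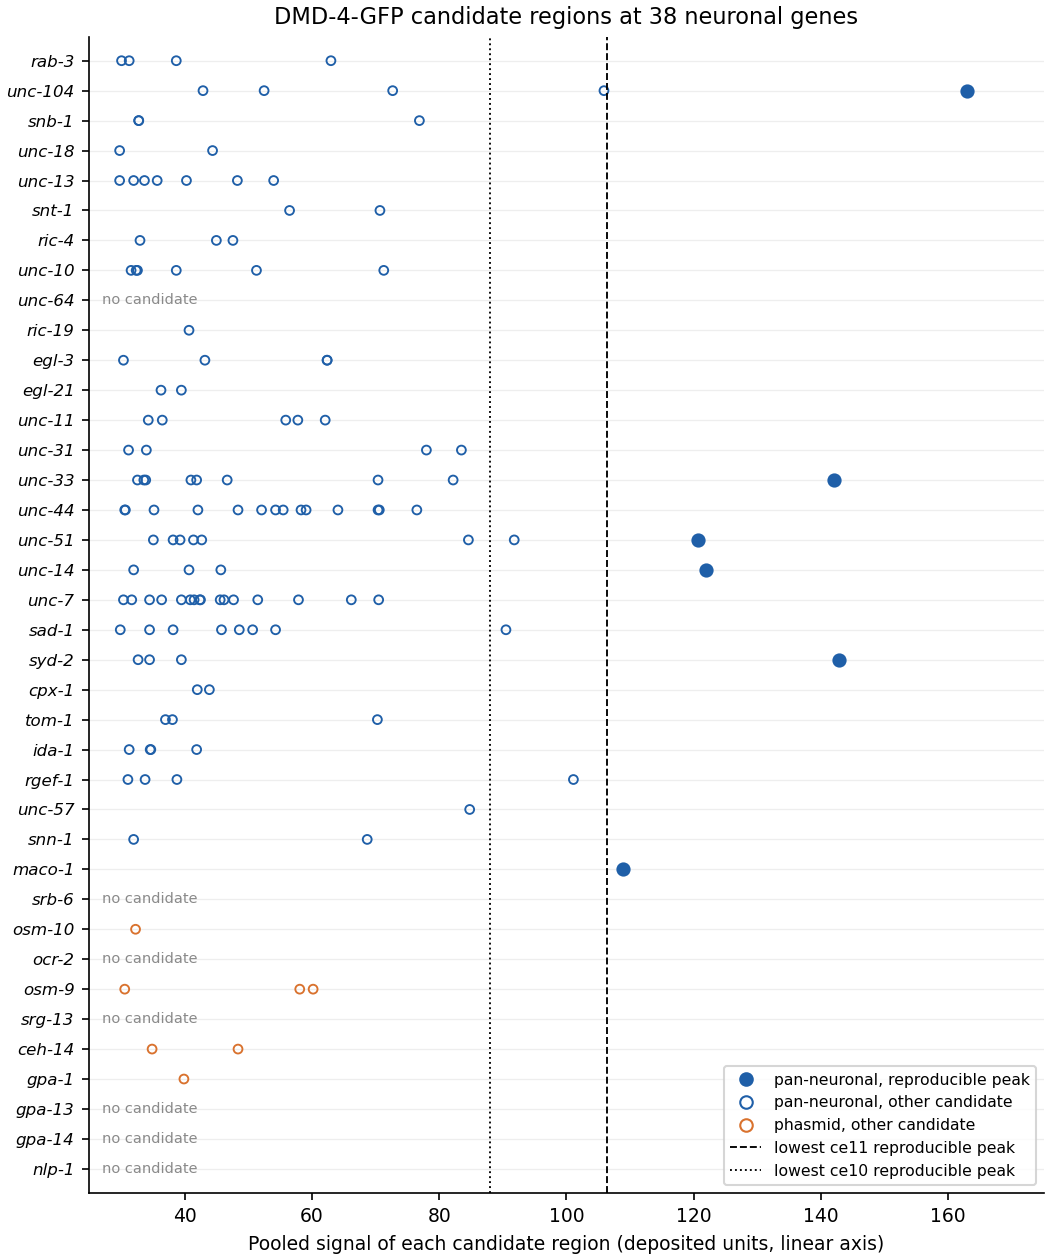
Pooled signal of every candidate (horizontal axis, deposited units, linear) at each of the 38 genes (vertical axis), blue for pan-neuronal and orange for phasmid genes, filled for reproducible peaks. The dashed line is the lowest signal of the ce11 reproducible list (106.4) and the dotted line that of the ce10 list (88.0). The dotted line is only a guide, since the units of different lists are not comparable. No phasmid gene comes above 60.2.

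At the phasmid genes the strongest candidate belonged to osm-9, a TRPV channel subunit of many chemosensory neurons. It lay 1864 bp upstream of the start at chrIV:3559070-3559519 with a signal of 60.2 (rank 4632). Its ranks in replicates 1 and 2 were 8749 and 7459. A second osm-9 region, in an intron beside a tRNA gene, had 58.1 (rank 5221) and another intronic one had 30.6. The partner channel gene ocr-2 had no candidate over 8300 bp. For ceh-14, a LIM homeobox gene that acts in the identity of phasmid and other neurons, the strongest region was in an intron with a signal of 48.4 (rank 9550). It ranked 18881 in replicate 1 and 6524 in replicate 2. Of the 3 G protein alpha subunit genes, gpa-1 had 1 candidate 120 bp inside its start (39.9, rank 16241), and gpa-13 and gpa-14 had none. The osmotic avoidance gene osm-10 had 1 candidate of 32.3, found in the list of replicate 2 and in none of replicate 1. Its summit lay inside another protein-coding gene, ztf-31. No candidate lay at the chemoreceptor genes srb-6 and srg-13 or at the neuropeptide gene nlp-1. The lowest signal in the pooled list of all candidates was 29.4, so these genes had no region above that value.

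The replicates were also read alone. Taking the top 652 regions of replicate 1 alone, 4 pan-neuronal genes (14.3%) and 0 phasmid genes had one, against 3.59% of all protein-coding genes. In replicate 2 alone the counts were 6 pan-neuronal genes (21.4%) and 0 phasmid genes, against 3.49% of all. The 4 genes of replicate 1 were unc-104, syd-2, unc-33 and unc-14. Replicate 2 had unc-104, syd-2, unc-33, unc-51, maco-1 and rgef-1. Thus unc-104, syd-2 and unc-33 were in the top 652 of both replicates, and unc-14, unc-51 and maco-1 in that of 1 replicate each. Of the pan-neuronal candidates, 88 of 128 (68.8%) overlapped a candidate of both replicates, against 4 of 7 at phasmid genes (57.1%) and 63.5% of all pooled candidates. Among all reproducible peaks 99.2% did so.

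**Figure D5:**
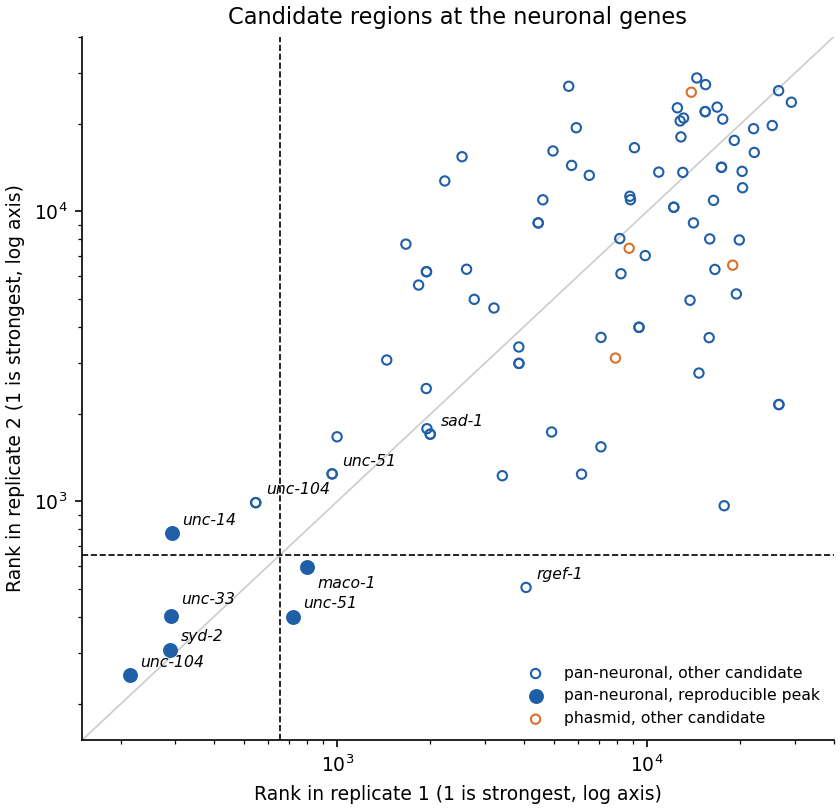
Rank of each member region in replicate 2 (vertical axis, log) against its rank in replicate 1 (horizontal axis, log), for regions found in both lists, with pan-neuronal regions in blue, phasmid regions in orange and reproducible peaks filled. Dashed lines mark rank 652 in each replicate, and the peaks of unc-104, syd-2 and unc-33 lie within both lines while rgef-1 lies at 505 in replicate 2 and 4067 in replicate 1. Overlapping pooled candidates can share 1 replicate region and then fall on 1 point.

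Down to rank 1138, the length of the authors' reproducible list on the older build ce10, 8 pan-neuronal genes (28.6%) and 0 phasmid genes had a region, against 5.76% of all protein-coding genes. By the stricter limit of a q of at most 0.05, 5 pan-neuronal genes (17.9%) and 0 phasmid genes had a region, against 2.78% of all. The lowest member peaks in the ce11 list were maco-1 (108.9, rank 620), unc-51 (120.6, rank 459) and unc-14 (122.0, rank 442). Of these, maco-1 alone was near the end of the list. Outside it, within the top 1138 ranks, lay 4 regions, the second of unc-104 (105.9), rgef-1 (101.1), the second of unc-51 (91.8) and sad-1 (90.5). Read among genes that had any candidate, 6 of the 27 pan-neuronal genes had a reproducible peak and 0 of the 4 phasmid genes, with a background of 5.51%. Read over regions, 6 of 128 pan-neuronal candidates were peaks and 0 of 7 phasmid candidates, where 2.1% of the candidates at protein-coding genes and 2.17% of all 30000 were.

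By location, promoters, from 1000 bp upstream to 200 bp downstream of a start of the gene, held 44 of 128 pan-neuronal candidates (34.4%), 2 of 7 phasmid candidates (28.6%) and 34.5% of gene and candidate pairs over all protein-coding genes. Introns held 49 pan-neuronal candidates (38.3%) and 3 phasmid candidates, against 28.6% over all genes, and coding exons held 17 (13.3%) and 0, against 16.2%. Pan-neuronal windows were longer, with the same 2000 bp upstream, and locations were not compared at like window lengths. The part of gene length in these shares was not tested. Of the 6 member peaks, 3 were in promoters (syd-2, unc-14 and maco-1), 2 in introns and 1 farther upstream. Over all protein-coding genes, 435 of 769 gene and peak pairs were in promoters, 152 in introns and 148 farther upstream, so the split of 6 peaks does not stand apart.

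Both intronic peaks, those of unc-104 and unc-33, were within 500 bp of a tRNA gene or tRNA pseudogene. Over all protein-coding genes this held for 46 of 152 intronic peaks (30.3%). Among intronic candidates it held for 7 of 49 at pan-neuronal genes (14.3%), 1 of 3 at phasmid genes and 202 of 9214 over all genes (2.19%). The 7 pan-neuronal candidates lay at 4 genes, 3 of them at unc-104 and 2 at unc-33, and formed 5 places once overlapping candidates were joined, so few loci carry that share. Without regions near structural RNA genes (tRNA, snoRNA, snRNA and rRNA genes), 5 of 28 pan-neuronal genes kept a peak (17.9%), with unc-33 lost, and 0 phasmid genes, against 2.72% of all protein-coding genes. Without regions near tRNA pseudogenes as well, 4 of 28 pan-neuronal genes kept a peak (14.3%), namely syd-2, unc-14, unc-51 and maco-1, and 0 phasmid genes, against 2.72% of all. This setting for pseudogenes was chosen after the unc-104 region had been seen.

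The sequence within 100 bp of the summit was richer in G and C at the member peaks, with a median of 52.0% (45.8 to 57.2%), than at all nuclear candidates (39.3%), and all nuclear reproducible peaks had a median of 47.3%. The candidates of pan-neuronal genes had a median of 40.8% and those of phasmid genes 38.8%. The hexamer GAGAGA, searched on both strands, was in 4 of 6 member peaks, those of unc-33, unc-14, unc-51 and maco-1, and in 36.5% of all nuclear reproducible peaks and 15.5% of all nuclear candidates. It was in 28 of 128 pan-neuronal candidates (21.9%) and 1 of 7 phasmid candidates. In the unc-51 sequence printed above it matched 5 times on the plus strand, overlapping copies included. The DM-domain core ACATTGT was in 0 of 6 member peaks, in 2 of 128 pan-neuronal candidates (1.56%) and in 0 of 7 phasmid candidates, against 2.95% of all peaks and 2.76% of all candidates. The hexamer CGCACA was in the unc-104 peak alone of the 6, against 21.3% of all peaks. The hexamer GTTCGA, part of the inner promoter of many tRNA genes, was in the capitals of both the unc-104 and the unc-33 sequences above. In unc-33 that copy lay farther than 100 bp from the summit. Within 100 bp the hexamer was in 1 of 6 member peaks (16.7%), that of unc-104, against 19.1% of all peaks. It was in 12 of 128 pan-neuronal candidates (9.38%) and 0 of 7 phasmid candidates, against 7.84% of all candidates.

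The pan-neuronal share of 21.4% (interval 8.3 to 41%) stood above those of a pair of lists of other neuronal genes outside the 38, and the differences were not tested. Of 42 further synaptic and secretory genes, 38 had a candidate (90.5%) and 2 a reproducible peak (4.76%, interval 0.582 to 16.2%), those of the vesicular monoamine transporter gene cat-1 (signal 155.2, rank 248) and the NSF gene nsf-1 (123.0, rank 434). The cat-1 peak was intronic and near a tRNA gene. Of 44 further sensory and ciliary genes, 30 had a candidate (68.2%) and 2 a reproducible peak (4.55%, interval 0.555 to 15.5%). These were the transport gene che-13 (334.1, rank 27), where the peak lay near a snoRNA gene, and daf-19 (143.0, rank 303), the RFX factor of ciliated neurons, whose promoter held overlapping peaks. Within the top 1138 ranks a region lay at 8 of 28 pan-neuronal genes (28.6%), 6 of 42 further synaptic and secretory genes (14.3%) and 3 of 44 further sensory and ciliary genes (6.82%), against 5.76% of all protein-coding genes and 15.6% of those with long windows.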

How the data were processed

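DMD-4-GFP ChIP-seq was performed in 1 group of 2 biological replicates, numbered as in the labels. The authors deposited region lists for each replicate, for the pooled replicates and after irreproducible discovery rate filtering, with a signal value and a −log10 q-value per region. Regions were called against control libraries, per the deposited listing of files. Read counts were not analysed here, so sequencing depth, and the precision that depends on it, is unknown. Not given in the sources used here are the aligner, the caller, their versions and the threshold on the discovery rate.

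Positions are on ce11. The ce10 lists were used only for the length and the lowest signal of the reproducible list. Genes came from Ensembl release 115, tRNA genes, tRNA pseudogenes and sequences from RefSeq. Replicate regions were matched by an overlap of at least 1 bp, and locations were assigned in the order promoter, coding exon, other exon, intron, upstream. All 38 genes were matched by symbol, and so were 42 and 44 genes of the comparison lists. In those lists rab-27 and rab-2 were not matched. All 38 genes are named, with full values for those with a region within the top 1138 ranks. Of the comparison lists, genes with a reproducible peak are named. The members and lists were chosen with earlier results of these data known, so no tests were made. Scripts used Python 3.11.15, pandas 2.3.3, NumPy 2.4.6 and SciPy 1.17.1, and region assignment was tested on simulated data.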

Additional observations from a re-analysis of the deposited data

How the results depend on the processing

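The alternatives were other gene windows, another promoter window, a q limit of 0.05, the ce10 list length, leaving out regions near structural RNA genes, merging of overlapping candidates, matching by summits and each replicate alone. The count of pan-neuronal genes with a reproducible peak was 6 as reported and 2 with gene bodies alone (unc-104 and unc-33). It was 5 with 1000 bp upstream (without unc-51), 8 with 5000 bp (sad-1 and unc-31 added), 7 when any overlap counted, 5 at a q of at most 0.05 (without maco-1), 5 without regions near structural RNA genes (without unc-33), 4 without those near tRNA pseudogenes as well, and 4 to 6 when 1 replicate was left out. The phasmid count was 0 under each of these. Over all protein-coding genes, the share was 1.15% with gene bodies alone, 2.87% with 1000 bp, 5.26% with 5000 bp and 3.91% when any overlap counted. The strongest phasmid signal, 60.2 as reported, was 58.1 with 1000 bp upstream or gene bodies alone and 79.6 with 5000 bp. The promoter share of pan-neuronal candidates, 34.4% as reported, was 25.9% with 5000 bp upstream and 24.2% with a promoter of 500 bp upstream to 100 bp downstream, and the phasmid share was then 0%. With 1 replicate left out it was 27.4 to 31.9% at pan-neuronal and 12.5 to 25% at phasmid genes. Genes with a candidate then numbered 27 in each case at pan-neuronal and 3 to 5 at phasmid genes, and candidates per 10 kb were 3.74 to 4.08 and 1.49. Merging of overlapping candidates gave 3.44 candidates per 10 kb at pan-neuronal and 1.31 at phasmid genes. Matching by summits within 100 bp gave 61 pan-neuronal and 3 phasmid candidates in both replicates. The leaving out of tRNA pseudogenes was chosen after seeing the data. Signals were not compared with 1 replicate left out, since the units differ between lists. No paired analysis was possible because there was 1 group. Genes and regions are not replicates, and 10 phasmid genes limit what a count of 0 can show.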
